A study of Mus musculus with 4 samples.

Results

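Complement genes and their regulators were followed in cultured mouse lung endothelial cells (ECs) with and without induced deletion of ADAR1, the enzyme that converts adenosine to inosine in double-stranded RNA. The 8 genes, C1ra, C2, C3, C4b, Cfb, Serping1, Cd55 and Cd59a, were taken by symbol and make up 8 of the 24421 genes of the count tables. The cells came from 2 male C57/BL6 mice, aged 2 weeks and of separate litters, of an inducible ADAR1 knockout (i-KO) model in which tamoxifen activates a Cre recombinase that removes exons 12 to 15 of Adar, the gene of ADAR1. Cells of each mouse were split into a culture given 4-OH-tamoxifen (TM) and a non-induced culture (CON) with the same alleles, which gave a CON and a TM library for each of the mice EC1 and EC2, with n = 2 per group. The labels call the knockout EC-specific, and the promoter that drives this Cre is not given in the sources used here. Values that are listed by library below run from EC1 to EC2, CON before TM. None of the libraries analysed here had tamoxifen without the floxed alleles, so that the agent and the deletion cannot be told apart. With 2 mice, p-values cover the spread between these cultures only.

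Complement is a chain of plasma and cell-surface proteins that marks and lyses targets. C1ra, a serine protease of the C1 complex, starts the classical pathway, in which C4b and C2 form the convertase that cleaves C3. Cfb is the protease subunit of the convertase of the alternative pathway, which amplifies C3 cleavage. Serping1 is the C1 inhibitor. Cd55 (decay-accelerating factor) takes convertases apart on the cell's own membrane, and Cd59a blocks the membrane attack complex there. In ECs, which face plasma, these surface regulators guard against lysis, and interferons and other cytokines are known inducers of C1ra, C2, C3, C4b, Cfb and Serping1.

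The 8 genes were read in 2 tables with different strengths. Counts on genes totalled 1095488 to 1778732 per library, only 0.823% to 0.858% of all rows of each count table. Among genes with at least 3 listed exonic sites, 87.5% to 89.9% had a count below the median read depth at those sites. Gapdh had 90, 78, 66 and 128 counts by library, beside a median depth of 4228.5, 3930, 5317.5 and 5837.5 reads at such sites. The reverse also occurred. Masp2, a complement gene outside the 8, had 1623, 1516, 1027 and 2409 counts, beside a median depth of 84, 71, 48 and 92.5 reads. Its exons share 1817 bases with Tardbp on the opposite strand. Counts are therefore given below as deposited, and whether they follow expression was not tested. The site table gives, for each library, the reads with the reference base and with the altered base at positions where an A-to-G change of the gene strand was called, and 0 reads elsewhere. Its depth was used as a second reading of expression, as the median over listed exonic and UTR sites of a gene, here called exonic depth and scaled to a total of 100000000 over all rows of the count table of that library (scaled depth). All rows summed to 131796753 to 207323870 per library, highest in EC2 TM. Adar itself was checked first. Its counts were 9, 47, 16 and 71 by library, higher in TM, whereas median depth at the listed sites of exons 12 to 14 was 145 and 169 in CON, was 65.5 in EC2 TM and had no listed site in EC1 TM, beside 664 and 967 in exons 2 to 11 of TM. All 12 endothelial markers had exonic depth in every library. Of 12 leukocyte markers, 7 had no listed exonic site in any library, Ptprc and Itgam among them. Fcgr3 was listed in every library, at a scaled depth of 39.8, 7.21, 51.6 and 4.82 by library. Cd68, Lyz2, Csf1r and Cd79a were listed in some libraries only, without a common direction. Of 9 epithelial markers 6 had no listed exonic site, Epcam and Sftpc among them.

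In TM the surface regulators Cd55 and Cd59a had lower values than in CON. Cd55 was called on counts and exonic depth, and Cd59a only by an alternative filter or a measure added later. DESeq2 called neither. C2 had more counts in TM, and the listed exonic sites of C2 and Cfb, neighbours on chromosome 17, lay in TM with the exception of 1 site of Cfb, although Cfb counts gave no call. C3 gave no call, and C4b and Serping1 were at or near the detection limit. C1ra was near it on counts and in CON, with its deeper sites in TM. The 4 libraries of each gene are given below by measure.

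**Figure D1:**
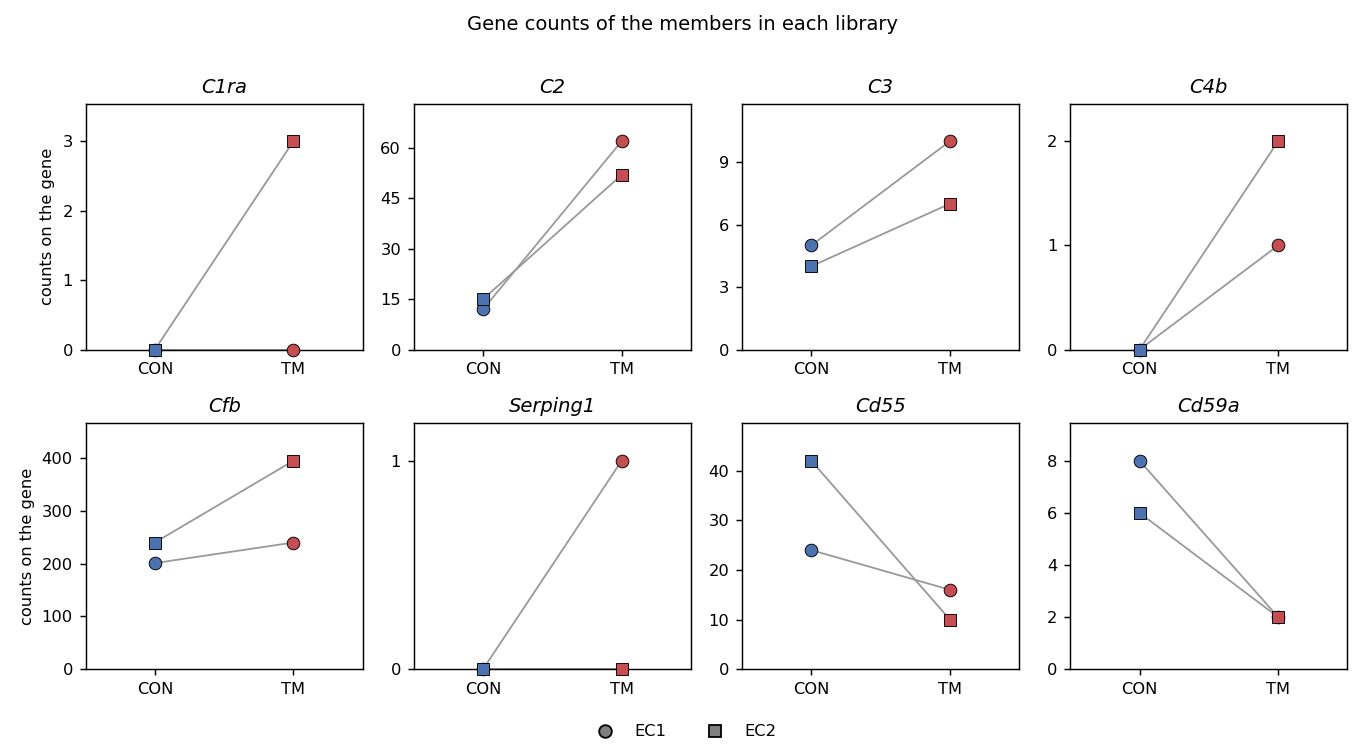
Counts on each of the 8 genes (vertical axis, number of counts, linear, a scale per gene) in CON and TM, with circles for EC1 and squares for EC2 and a line joining the cultures of a mouse. C2 lies at 12 and 15 in CON and 62 and 52 in TM, Cd55 at 24 and 42 in CON and 16 and 10 in TM, and C1ra, C4b and Serping1 do not exceed 3.

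C2 was the member with the clearest rise in counts. In EC1 it had 12 counts in CON and 62 in TM, and in EC2 15 in CON and 52 in TM. Both TM values lay above both CON values, as for 20.8% of genes with a count after scaling. The rise was 1.78 ± 0.45 on the log2 scale (standard error, n = 2 per group), with an adjusted p of 0.0104 by the quasi-likelihood test of edgeR, adjusted over all genes. The call was lost without EC1 CON (adjusted p = 0.0752) or EC1 TM (0.150). The gene lies on the minus strand of chromosome 17 (chr17:34862604-34898265, GRCm38). Its exons share 161 bases with exons of Zbtb12 on the opposite strand, and 53.1% of the windows of 1 read length in its transcript C2-201 also occur in the readthrough gene Gm20547, which has no row in the count tables. Zbtb12 had 33, 29, 28 and 64 counts by library, and its groups overlapped after scaling.

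All listed exonic sites of C2 were in TM. None was listed in EC1 CON or EC2 CON. In EC1 TM 3 sites were listed at 48 to 64 reads, and in EC2 TM 9 sites at 7 to 225 reads, with medians of 59 and 136. On the common scale these are 44.8 and 65.6 reads. They were spread over the gene, from exon 1 to exon 18 of C2-201 in EC2 TM. Since a site enters a library only with an altered base, CON depth is unknown there and no fold is given. As a background, 2.72% of the 8458 genes that listed at least 3 exonic sites in EC1 TM listed none in EC1 CON, and 0.57% of the 5961 genes with at least 9 in EC2 TM listed none in EC2 CON. Such shares, here and below, take the member's own numbers as limits and include genes with many more sites. They are no test, and genes with equal numbers of sites were not compared.

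Cfb gave different pictures in the 2 tables. Its counts were 201, 240, 240 and 395 by library. After scaling by edgeR's TMM method they were 171, 211, 215 and 226 CPM, counts relative to the total on genes, with overlapping groups. The log2 change of 0.15 ± 0.29 had an adjusted p of 0.843, and its sign changed without EC1 CON (-0.0017). The site table listed no exonic site of Cfb in EC1 CON and 1 in EC2 CON, at 13 reads. In EC1 TM 9 exonic sites were listed at 90 to 147 reads, and in EC2 TM 16 sites at 149 to 455 reads. After scaling the medians were 90.3 and 142 in TM and 9.06 in EC2 CON.

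The intronic sites of Cfb moved otherwise. Their median scaled depth was 12.1 in EC1 TM (2 sites), 10.1 in EC2 CON (4 sites) and 9.41 in EC2 TM (6 sites), so that the 1 exonic site of EC2 CON lay near its intronic sites, while the exonic sites of TM lay above theirs. The deep sites were spread from exon 1 to exon 18 of the transcript Cfb-202. Of the 4583 genes with at least 9 listed exonic sites in EC1 TM, 0.633% listed none in EC1 CON, and of the 3882 with at least 16 in EC2 TM, 1.06% listed at most 1 in EC2 CON. Cfb lies next to C2 on the minus strand (chr17:34856374-34862518), its 3′ end is 2 bases from that of Nelfe on the opposite strand, and 81.0% of its windows of 1 read length are shared with Gm20547. Gm20547 has no row in the count tables, and its reads cannot be told apart from those of Cfb in the shared windows. Why counts and exonic depth differ at Cfb was not tested.

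**Figure D2:**
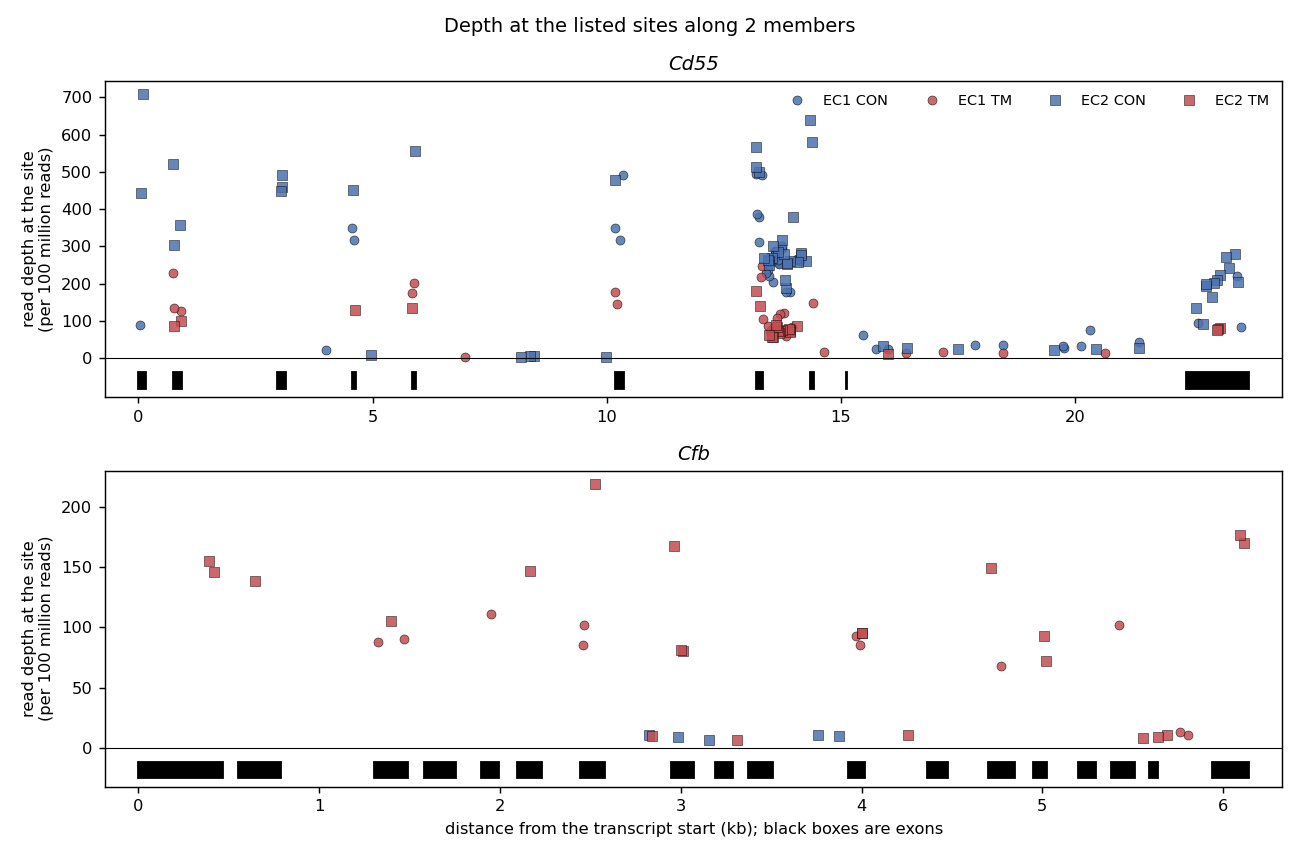
Read depth scaled to 100000000 reads (vertical axis, linear) at each listed exonic and intronic site along Cd55 and Cfb, against the distance from the transcript start in kb, with black boxes for exons, blue for CON, red for TM, circles for EC1 and squares for EC2. Sites of Cfb exons lie at or above 68.3 in TM, and the sites of CON lie near 10, while most Cd55 sites of CON lie above those of TM in the exons and in the intron that another transcript retains.

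Cd55 fell in counts by edgeR and in exonic depth by limma. In EC1 it had 24 counts in CON and 16 in TM, and in EC2 42 in CON and 10 in TM, with no overlap between groups (lower in TM without overlap for 17.4% of genes with a count). The log2 change was -1.63 ± 0.51 (adjusted p = 0.0462, edgeR). Its median exonic depth was 444 reads in CON and 232 in TM of EC1, and 576 and 207 in EC2. After scaling these are 334, 176, 401 and 99.8, and both CON values exceeded both TM values, as for 25.1% of the genes tested on depth. The change in exonic depth was -1.46 ± 0.29 on the log2 scale, a 2.76-fold lower depth (adjusted p = 0.000747 by limma).

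The sizes of the fall differed between the mice, a difference that was not tested. At the 2 exonic sites listed in both cultures of EC2 the depth changed by -1.63 on the log2 scale (median), and at the single such site of EC1 by -0.98. At all 7 sites listed in both cultures of a mouse, exonic or intronic, depth was lower in TM. Over all genes the median change at such exonic sites with at least 20 reads in CON was -0.012 in EC1 and -0.10 in EC2. Without EC2 TM the change in exonic depth was -1.06 with an adjusted p of 0.226. The fall in counts was 3.10-fold with all libraries, 5.16-fold without EC1 TM, 2.21-fold without EC2 CON and 2.07-fold without EC2 TM, and the call was lost in the last 2 cases (adjusted p = 0.433 and 0.341).

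Reads in an intron of Cd55 followed its exons. Between exons 7 and 8 of the coding transcript Cd55-201 lies an intron that another annotated transcript retains within its own exon 7 (chr1:130448328-130449563, minus strand). Its median depth outside the exons of Cd55-201 was 346 reads in CON and 109 in TM of EC1, and 377 and 154 in EC2. This was 77.9%, 47.0%, 65.5% and 74.4% of exonic depth by library, whereas the other intronic sites of the gene had medians of 20 to 44 reads. The share therefore did not separate the groups. Of the windows of 1 read length in Cd55-201, 6.78% also occur in the neighbouring paralog Cd55b, which had 0 counts in all libraries and a median exonic depth of at most 29.5 reads. Exons of Cd55 share 102 bases with the antisense gene Gm16083.

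**Figure D3:**
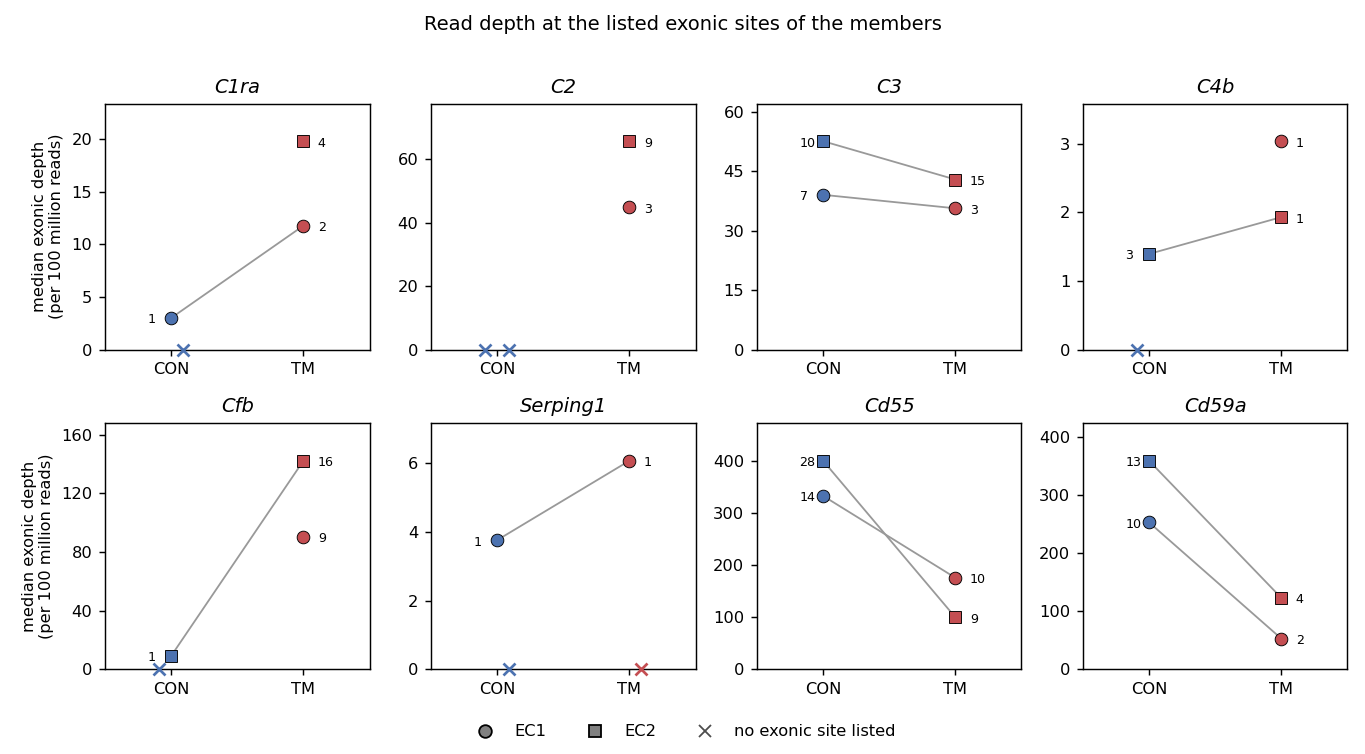
Median read depth at the listed exonic sites of each gene (vertical axis, scaled to 100000000 reads, linear, a scale per gene) in CON and TM, with circles for EC1, squares for EC2, the number of sites beside each point and a cross where no exonic site is listed. Cd55 goes from 334 and 401 to 176 and 99.8, Cd59a from 253 and 359 to 52.7 and 123, and C2 and Cfb have their deep values in TM.

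Cd59a was read at low counts and at high depth. It had 8, 2, 6 and 2 counts by library, too few for edgeR's filter, and without the filter the change of -2.04 ± 1.11 did not pass (adjusted p = 0.469). Its scaled exonic depth was 253 in CON (10 sites) and 52.7 in TM (2 sites) of EC1, and 359 in CON (13 sites) and 123 in TM (4 sites) of EC2. Both TM values lay below both CON values, beside 25.1% of the genes tested on depth, to which Cd59a does not belong. Because EC1 TM listed only 2 sites, the gene was outside the limma fit with at least 3 sites per library. With at least 1 site per library it fell by 1.91 ± 0.39 on the log2 scale (adjusted p = 0.0192, limma), and 2.48% of 9788 genes were called lower in TM by that rule. Cd59a lies on the plus strand of chromosome 2 (chr2:104095801-104115354), and 0.234% of its windows occur in its paralog Cd59b.

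Over all genes, edgeR called 7.75% of the 7899 tested on counts, 4.39% higher and 3.35% lower in TM. A replicate block by mouse gave 1184 calls in place of 612. Of the 3 members tested 2 were called, C2 higher and Cd55 lower. DESeq2 called neither (adjusted p = 0.115 for C2 and 0.389 for Cd55) while calling 3.55% of its genes. On exonic depth limma called 11.8% of 6836 genes, 5.44% lower in TM, and 1 of the 2 members tested, Cd55, the other being C3. With the block it called 1326 genes in place of 809.

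The number of listed exonic sites was added as another measure after these gaps were seen. It comes from the same table as exonic depth and is not independent of it. Cd55 had 14, 10, 28 and 9 sites and Cd59a 10, 2, 13 and 4 by library. Of genes with at least as many sites as Cd59a in CON, 0.889% in EC1 and 0.694% in EC2 had as few in TM, and for Cd55 these shares were 9.8% and 0.344%. With edgeR Cd55 changed by -1.35 ± 0.38 (adjusted p = 0.0410) and Cd59a by -2.10 ± 0.58 (adjusted p = 0.0351), and 9.16% of 4650 genes were called, 3.16% lower in TM. No other member passed the filter. With the replicate block Cd59a was not called (adjusted p = 0.0560), with each library left out its adjusted p was 0.145 to 0.579, and Cd55 was not called without EC2 CON (0.484), without EC2 TM (0.203) or without TMM scaling (0.0543). Without the filter Cfb and C2 were called as well, higher in TM (adjusted p = 7.61e-05 and 0.00623), where 3.85% of 14389 genes were called, 2.47% higher in TM. Their listed sites lay in TM with the exception of 1 of Cfb, as was seen before the measure was added. These 2 p-values restate that gap and are no separate support for a rise. DESeq2 called no member on this measure and 2.14% of its genes, with unadjusted p-values under 0.05 for Cd55, Cd59a, C2 and Cfb.

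**Figure D4:**
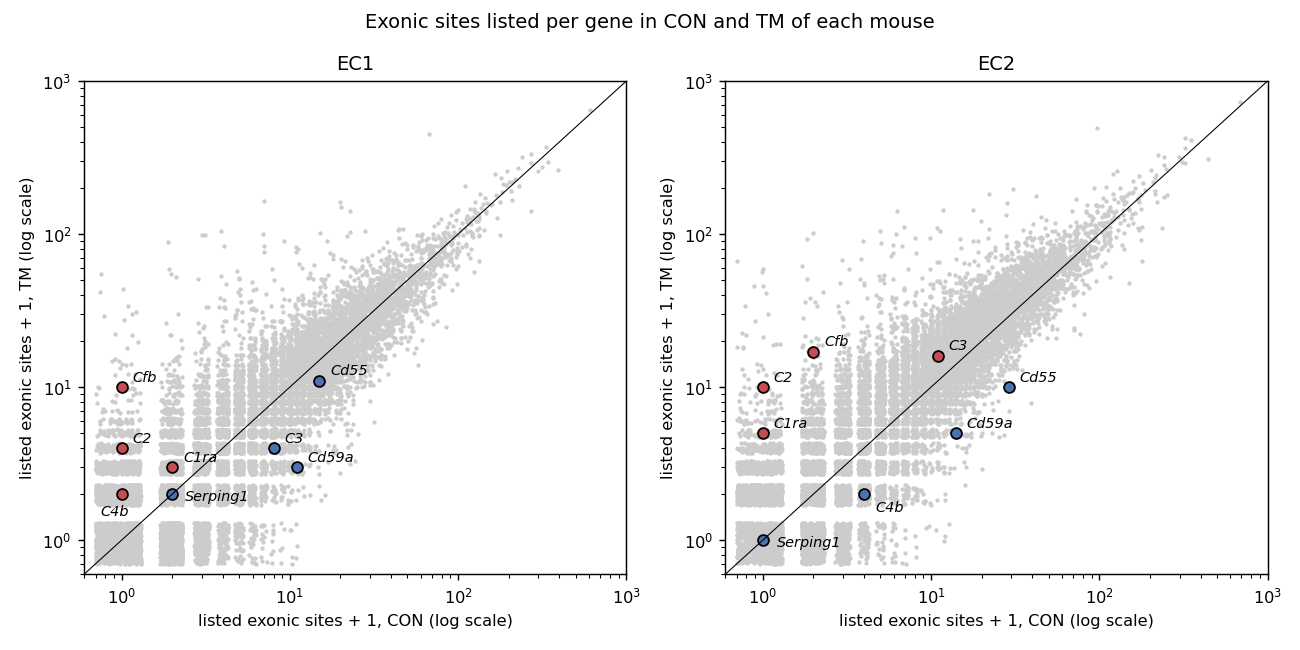
Number of exonic sites listed per gene plus 1 in CON (horizontal) and TM (vertical) of each mouse, both axes on a log scale, with all genes in grey (spread slightly at random), the members named, red above the diagonal and blue on or below it. Cfb and C2 lie far above the diagonal in both mice, and Cd59a and Cd55 lie below it.

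C3, on which all pathways converge, was read at moderate depth in every library. Its counts were 5, 10, 4 and 7 by library, too few to test with the filter. Scaled exonic depth was 39.1 in CON and 35.7 in TM of EC1, and 52.6 and 42.9 in EC2, with overlapping groups. The change of -0.21 ± 0.32 on the log2 scale had an adjusted p of 0.748 (limma), and its sign changed without EC2 CON (0.0019). It lies on chromosome 17 as well (chr17:57203970-57228136, minus strand) and shares no window of 1 read length with another gene.

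C1ra, C4b and Serping1 were barely detected on counts. C1ra had 3 counts in EC2 TM and 0 elsewhere, where 0 counts allow up to 2.74 CPM in the EC1 libraries and 2.45 CPM in EC2 CON. Its exonic sites were 1 at 4 reads in EC1 CON, 2 at a median of 15.5 in EC1 TM, none in EC2 CON and 4 at a median of 41 in EC2 TM. The deeper values were those of TM, but 34.3% of the windows of C1ra occur in its paralog C1rb. In those windows reads of the pair cannot be told apart, and whether the listed sites lie in them was not tested. C1rb listed 2 sites in EC2 TM, at 1 and 41 reads. C4b had 0, 1, 0 and 2 counts and at most 4 reads at an exonic site, and shares 16.3% of its windows with C4a. Serping1 had 1 count in EC1 TM and 0 elsewhere, and 1 exonic site in each EC1 library, at 5 reads in CON and 8 in TM. No difference was detectable at this depth for C4b and Serping1.

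Read depth at a site does not depend on gene length and can be set side by side where sites are listed. In CON Cd55 (334 and 401, scaled) and Cd59a (253 and 359) overlapped each other and lay above C3 (39.1 and 52.6). The other 5 genes have no place in this order in CON, since each lacked a listed exonic site in at least 1 CON library. On counts Cfb was the highest member there, with 201 and 240, beside 24 and 42 for Cd55. Yet Cfb listed no exonic site in EC1 CON and 1 at 13 reads in EC2 CON. Counts are therefore not read as an order of expression. In TM Cd55 (176 and 99.8), Cfb (90.3 and 142) and Cd59a (52.7 and 123) overlapped, and C2 (44.8 and 65.6) overlapped Cd59a and lay above C3 (35.7 and 42.9). These depths are taken at sites with an altered base, which differ between libraries.

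**Figure D5:**
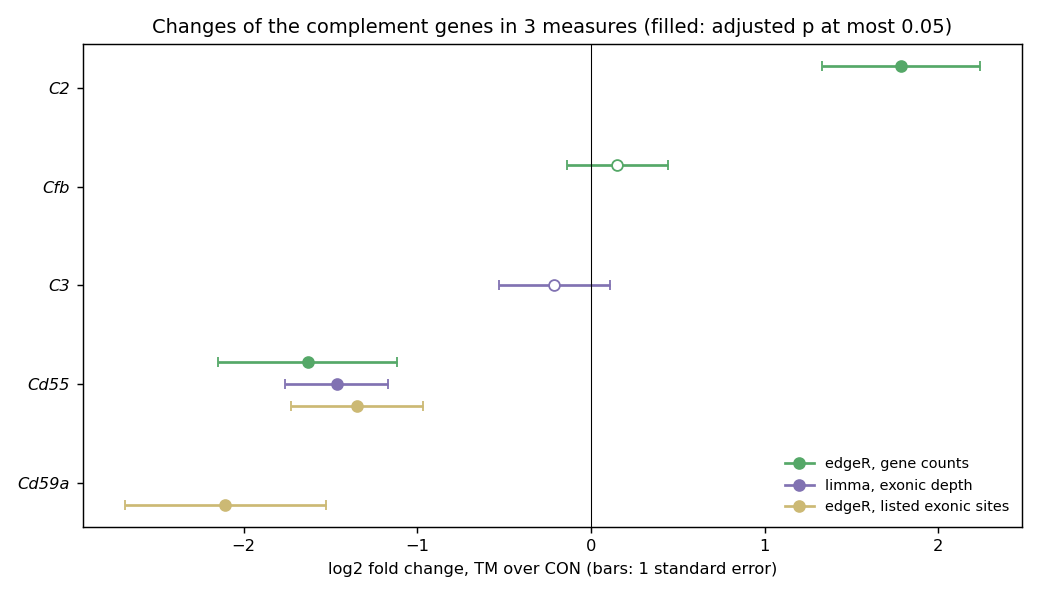
Log2 fold change of TM over CON (horizontal axis) with its standard error for C2, Cfb, C3, Cd55 and Cd59a in gene counts, exonic depth and listed exonic sites, as far as each could be tested. Filled points have an adjusted p of at most 0.05, which holds for Cd55 in all 3 measures (-1.63, -1.46 and -1.35), for C2 in counts (1.78) and for Cd59a in listed sites (-2.10).

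The rest of the pathway was read from a list of 46 other complement genes. Most had few or no counts, with 18 at 0 in all libraries and 29 at no more than 3 in every library, and 19 had no listed exonic site in any library while 11 had such sites in each. Of 16 classical and lectin pathway genes 13 had no more than 3 counts in every library. So did 5 of 7 terminal pathway genes, 6 of 9 receptors, 4 of 12 regulators and 1 of the 2 other genes of the alternative pathway. Few counts did not always go with low depth. Clu, 1 of these regulators, had 2, 0, 0 and 3 counts, beside a median exonic depth of 164, 104, 175 and 160 reads. On counts 10 of the 46 were tested and none was called by edgeR, with 1 at an unadjusted p under 0.05. DESeq2 called none of the 13 for which it gave an adjusted p, with 0 at an unadjusted p under 0.05. The median log2 change of the 10 by edgeR was 0.0087, beside 0.0017 over all genes tested. Masp2, with counts far above its depth, was among the 10. So was Cr2, which had 117, 125, 61 and 91 counts by library and no listed exonic site. Others, such as Cr1l and Thbd, had exonic sites in every library. Whether the counts of the 10 follow expression was not tested.

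On exonic depth 8 of the 46 were tested and none was called by limma, with 4 at an unadjusted p under 0.05, as were 24.6% of all genes tested on depth and 20.5% of those tested on counts. Their median log2 change was -0.094, beside 0.012 over all genes tested, with 4 of the 8 higher and 4 lower in sign. Of the 5 regulators among them, Cr1l, Thbd and C1qbp were higher in sign and Susd4 and Clu lower. Scaled depth of Cr1l was 212 and 256 in CON and 317 and 368 in TM (adjusted p = 0.215, limma). That of Thbd was 151 and 210 in CON and 231 and 342 in TM (0.151). Susd4 had 214 and 210 in CON and 118 and 128 in TM (0.0601). On listed exonic sites 5 of the 46 were tested and none was called by edgeR, with 1 at an unadjusted p under 0.05, and DESeq2 called none of 8, with 0 at an unadjusted p under 0.05.

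Markers of other cells were set beside the falls of Cd55 and Cd59a. The scaled exonic depth summed over 11 fibroblast and smooth muscle markers was 599 and 944 in CON and 206 and 323 in TM, over the 6 to 10 genes listed in a library, and Lum was never listed. Their counts summed to 593 and 533 CPM in CON and 604 and 502 in TM. Dcn had a scaled depth of 255 and 311 in CON and 92.9 and 104 in TM. Col1a1 (54.1 and 82.2 in CON, 18.2 and 36.2 in TM) and Tagln were also lower in TM of both mice. Acta2, Col1a2 and Col3a1 were lower in TM of EC2 and unlisted in EC1 TM, and Pdgfrb was listed in CON only. At depths of at most 5.69, Myh11 and Cnn1 were higher in TM of EC1 and lower in TM of EC2. Pdgfra went the other way at low depth, with 2.09 in CON and 11.1 in TM of EC2. None of the list was called, and only Tagln had 3 sites in each library (-0.79, adjusted p = 0.109, limma). The endothelial list summed to 23109 and 28792 in CON and 20697 and 22754 in TM. The leukocyte list summed to 76.6 and 80.1 in CON and 28.1 and 40.8 in TM, over the 2 to 5 genes listed in a library, and to 101.3 and 76.1 CPM in CON and 96.7 and 71.4 in TM. The part of other cells in these results was not tested. In bulk RNA, fewer cells of a type and less RNA per cell cannot be told apart.

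Editing of the members themselves was read from the same table. The site table listed 313 sites for the 8 genes, 165 of them in exons or UTRs and 104 in introns, and 154 belonged to Cd55. Of these 284 were listed in a single library, and none in all 4. A single altered read was the whole evidence for 83.0% to 85.9% of the member sites listed in a library, compared with 76.0% to 76.6% over all genes. The study kept a site in a library where the depth reached 5, the altered reads reached 3 and the rate lay between 0.05 and 0.95. By these limits none of 78, 72 and 99 member sites passed in EC1 CON, EC1 TM and EC2 CON, and 2 of 100 passed in EC2 TM. Over all genes 2.61% to 3.15% of listed sites passed. No exonic or UTR site of a member passed in any library, with 31 to 58 listed, where 0.968% to 1.46% of such sites passed over all genes, so that the count of 0 does not set the members apart.

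The 2 passing sites lay in a B1F repeat in an intron of C2, a short interspersed element of the kind that ADAR1 edits, at positions 34879573 and 34879584 of chromosome 17. The first had 4 altered reads of 13 in EC2 TM (30.8%, 95% Wilson interval 12.7% to 57.6%) and 2 of 8 in EC1 TM (25.0%, 7.15% to 59.1%). The second had 3 of 17 in EC2 TM (17.6%, 6.19% to 41.0%). Neither was listed in a CON library, where C2 had at most 1 listed intronic site, so that a rate in CON is unknown. Both positions also lie within Zbtb12 on the opposite strand, and intervals cover counting error only. No member site that met the study's limits in a culture was listed in the other culture of its mouse, so Fisher's exact test on reads was made at none of them, while 0.959% of 9800 sites in EC1 and 2.46% of 10402 sites in EC2 were called over all genes.

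The member site with the most altered reads was in Cd55, at position 130461972 of chromosome 1 in exon 2 of Cd55-201. The 29 bases around it in the transcript (GENCODE vM21, GRCm38) are shown for that reason, with the A in capitals.
Cd55 exon 2 site: acattcctaatgccAggccaatcttgggc
A change to G there would turn codon 46 from arginine to glycine. The site had 5 altered reads of 177 in EC1 TM (2.82%, Wilson interval 1.21% to 6.44%), 6 of 437 in EC2 CON (1.37%, 0.631% to 2.96%) and 4 of 182 in EC2 TM (2.20%, 0.858% to 5.51%), and was not listed in EC1 CON. The intervals overlap, and all rates lie below the 0.05 limit.

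Promoters of C1ra, C3, Cd55 and Cd59a, 4 of the 8 members, were found in the RefSeq table (GRCm38.p6), and those of C2, C4b, Cfb and Serping1 were not looked for elsewhere. The 250 bases before the start of the 2 surface regulators that were lower in TM are given 5′ to 3′ on the gene strand, Cd55 at chr1:130462745-130462994 (minus) and Cd59a at chr2:104095551-104095800 (plus), with motif matches in capitals.
Cd55: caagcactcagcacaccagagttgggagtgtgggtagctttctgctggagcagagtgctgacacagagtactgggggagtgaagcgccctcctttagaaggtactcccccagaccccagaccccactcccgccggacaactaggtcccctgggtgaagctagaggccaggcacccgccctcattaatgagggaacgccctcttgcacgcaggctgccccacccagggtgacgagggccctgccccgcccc
Cd59a: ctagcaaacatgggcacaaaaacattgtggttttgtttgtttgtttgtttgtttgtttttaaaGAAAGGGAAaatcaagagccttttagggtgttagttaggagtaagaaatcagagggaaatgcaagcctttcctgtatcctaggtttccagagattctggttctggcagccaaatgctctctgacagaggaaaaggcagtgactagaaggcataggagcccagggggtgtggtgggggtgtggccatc
Each promoter was searched on both strands for the letters GAAANNGAA, TTCNNNGAA and GGNNTTTCC, where N is any base, the core letters known from elements bound by interferon regulatory factors, STAT proteins and NF-kB. The first occurs once, in Cd59a, at bases -187 to -179 from the start, and in 7.13% of the 32851 promoters of the table. The other motifs occur in none of the 4 members and in 7.02% and 4.93% of all promoters. The Cd55 promoter is 64.0% G and C, and that of Cd59a 44.8%, around a median of 52.4% over the table.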

How the data were processed

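RNA of 4 EC cultures was depleted of ribosomal RNA and sequenced in pairs. Trimming (Trimmomatic 0.38) and alignment to mm10 (STAR 2.6.1a) were done by the authors, who deposited raw HTSeq 0.11.2 counts per gene, without normalization. Default settings were stated, and whether the strand setting matched the library kit was not tested. Rows that name no gene (92.8% to 93.9% of each total on no feature, 5.29% to 6.32% not unique) were left out. The authors called variants with BCFtools mpileup and deposited counts of reads with each base and, as a fraction, the editing rate. Site columns were given to libraries through the study's supplementary site table, equal at 1998 of 1998 sites.

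The members and lists were chosen with earlier results of these data known. Gene counts and numbers of listed sites were tested with edgeR 4.0.16 (filterByExpr, TMM, quasi-likelihood, condition only), and log2 exonic depth with limma 3.58.1 (trend, no pseudocount), with Benjamini-Hochberg adjustment over all genes at 0.05 (R 4.3.3). DESeq2 1.42.0, other scalings and filters, a replicate block by mouse and each library left out were alternatives. Cultures are paired because both came from the same mouse, and deviations from the group mean correlated between them with r = 0.16 over 7899 genes (counts) and 0.10 over 6836 genes (depth). Scripts were tested on simulated data. All 8 members are named, as are paralogs and overlapping genes and, by the rule set, any other complement gene called. Masp2, Cr2, Cr1l, Thbd, C1qbp, Susd4 and Clu were named outside that rule, for their values. A gene of the pathway list is not reported here. Gene models are of GENCODE vM21.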

Additional observations from a re-analysis of the deposited data

How the results depend on the processing

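Of the members called on gene counts, C2 and Cd55 with edgeR, none was called with DESeq2 (0) or with the replicate block in DESeq2 (0), and 1 of them was called with each library left out (lowest 1, highest 1). C2 lost its call without EC1 CON (adjusted p = 0.0752) or EC1 TM (0.150). The paired fit in edgeR, with the mouse as replicate block, called both (2) and raised the calls over all genes from 612 to 1184, from 809 to 1326 on exonic depth, and with limma on depth it left the call of Cd55. Among members the block in edgeR or limma changed only the call of Cd59a on listed sites. The 1 member called on exonic depth became 2 with at least 1 site per library, and ranged from 0 to 1 with each library left out. On listed exonic sites, a measure chosen after seeing the data, the 2 members called became 4 without a filter, 1 with the replicate block in edgeR, 1 without TMM, 0 with DESeq2, 0 with the replicate block in DESeq2, and 0 to 1 with each library left out. The change of Cfb in counts was -0.0017 to 0.30 and that of C3 in exonic depth -0.43 to 0.0019 with a library left out. No mean editing rate exists over sites listed in both cultures, and it was 0.242 in EC2 TM with unlisted sites as 0 and 0.233 with reads pooled. No member had a site listed in all libraries, and no member site could be tested under any limit on depth, altered reads or rate, so these settings gave no value. On all genes DESeq2 called 363 on counts and 153 on listed sites (426 with edgeR), median-ratio scaling (library shifts of -0.16 to 0.16 on the log2 scale) 1354 on depth, and 381 with sites listed in all libraries. Where a group was left with 1 library, it was assumed to vary like the other. Changes of single members kept direction and call in 38 comparisons, lost the call in 20 and changed sign in 2. Of the 38, 8 were of Cfb and 6 of C3, which had no call to lose.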
